A study of Mus musculus with 32 samples.

Results

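RGS proteins (regulators of G-protein signaling) shorten the signal of G-protein coupled receptors. Their shared RGS domain speeds the hydrolysis of GTP by an active G alpha subunit, which then rebinds its G beta gamma partner and stops signaling. The receptors for LH on Leydig cells and for FSH on Sertoli cells belong to this receptor class. They act mainly through the stimulatory G alpha subunit and cyclic AMP, and control steroid synthesis and the support of germ cells. The G alpha classes named below for RGS members are Gq, Gi and Gz, not this stimulatory subunit.

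The transcripts described here are 10 RGS genes of the mouse: Rgs2, Rgs3, Rgs9, Rgs11, Rgs12, Rgs14, Rgs16, Rgs17, Rgs19 and Rgs22. They were chosen by name, with earlier results of these data known. Every probe set whose only gene symbol is one of these names was taken. That gave 11 probe sets of 35556 on the array, and 10 genes of the 19920 that have a probe set with a single symbol. Rgs3 has 2 probe sets and each other gene 1. All 10 genes passed a linear signal of 50 in at least 1 array of every comparison and were tested in each.

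In RiboTag mice, Cre recombinase switches on a hemagglutinin (HA) tag on a ribosomal protein, and an anti-HA immunoprecipitate (IP) of testis homogenate holds polysome-associated RNA of the Cre-expressing cells. The input is RNA of the homogenate itself, from all testis cells. All animals were adults that carried the RiboTag allele with either AMH-Cre or Cyp17iCre. AMH-Cre is driven in Sertoli cells and Cyp17iCre in Leydig cells. In Cyp17iCre: RiboTag mice the study also found the tag in scattered tubule cells, which it identified as Sertoli cells from RNA enrichment. The Leydig IPs named here therefore come from a line in which some Sertoli cells carry the tag, per the study. The 32 arrays, 1 per sample, measured 12 groups.

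AMH-Cre: RiboTag mice gave 5 inputs and 5 IPs after saline. They gave 2 IPs each after the GnRH antagonist acyline alone, 1 h and 4 h after FSH on top of acyline, after the antagonist cetrorelix, and after cetrorelix followed by testosterone. Cyp17iCre: RiboTag mice gave 3 inputs and 3 IPs after saline, and 2 IPs each after 4 days of acyline, and 1 h and 4 h after a single dose of purified human LH that followed it. The antagonists were given for fewer days in the AMH-Cre mice than in the Cyp17iCre mice, so the length of treatment and the cell type cannot be told apart between the lines. Every hormone group also carried an antagonist, and no hormone was given alone. The study's text counts the saline samples, and the Sertoli hormone samples, as mice, the latter chosen for their serum hormone levels. The labels do not tie arrays to animals, and for the Leydig acyline and LH arrays the p-values measure only the spread between arrays, which may be technical.

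Values are log2 signals after RMA, the method by which the authors normalized the arrays, and array medians lay between 6.36 and 6.50. The cell types were checked on marker genes. All 6 measured Leydig markers were higher in Leydig IPs than inputs (median log2 difference 3.15), and all 8 Sertoli markers were higher in Sertoli IPs (2.61). Of the 8 Sertoli markers, 1 was higher by over 2-fold in Leydig IPs than in inputs, Trf at 2.89-fold. Pvr (1.88-fold), Gata1 (1.63-fold) and Wt1 (1.23-fold) were higher by less, with adjusted p-values under 0.05 by limma. The summed linear signal of the 8 Sertoli markers was 3470 to 4070 in saline Leydig IPs, 2550 to 2680 in their inputs and 14000 to 15500 in saline Sertoli IPs. The IPs also held germ cell RNA: 8 spermatid markers summed to 19300 to 26100 in the 24 IPs and 42100 to 50400 in the 8 inputs. Of 6 peritubular myoid markers, 1 was over 2-fold higher and 1 lower in Leydig IPs than inputs, and 2 and 1 in Sertoli IPs. Myh11 was higher in both (3.37-fold in Leydig and 3.78-fold in Sertoli IPs), Myl9 in Sertoli IPs (3.38-fold), and Acta2 lower in both. Their sum was 3450 to 3880 in saline Sertoli IPs and 2000 to 2410 in their inputs. It was 1700 to 2070 in saline Leydig IPs and 2180 to 2220 in their inputs. The source of this signal was not tested.

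The sequence before the Rgs2 start site is shown because Rgs2 was the only member that differed by over 1.5-fold in a hormone comparison. RefSeq (GRCm38.p6) places the gene at chr1:143999338-144004149 on the minus strand. The 250 bases before its start, chr1:144004150-144004399, read 5′ to 3′ on the gene's strand, with the letters TGACG or their reverse complement in capitals.
Rgs2 upstream: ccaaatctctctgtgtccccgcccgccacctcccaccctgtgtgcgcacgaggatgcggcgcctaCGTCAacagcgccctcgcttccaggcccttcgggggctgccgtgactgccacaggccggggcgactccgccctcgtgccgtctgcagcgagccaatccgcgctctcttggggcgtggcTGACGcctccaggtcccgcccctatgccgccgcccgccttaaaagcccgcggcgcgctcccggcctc
TGACG is the core of the cyclic AMP response element, TGACGTCA, to which the CREB family of transcription factors binds. The core lay 185 to 181 bases upstream of the start on the reverse strand and 67 to 63 bases upstream on the gene's strand. The full element was absent. Of 32851 RefSeq promoter windows of 300 bases, 20.8% held the core on either strand and 1.79% the full element, which itself contains the core. Windows were found for 7 of the 10 members (11 windows), and the core occurred in 2 of them, those of Rgs2 and of 1 of the Rgs12 start sites. The NR4A element, AAAGGTCA, occurred in none of the 11 windows and in 1.51% of all. These matches describe letters and not bound sites.

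Rgs2, a member of the R4 subfamily that preferentially turns off Gq and is known as an inducible gene, was the most enriched member in both cell types. In Sertoli samples its log2 signal was 6.69, 6.27, 6.56, 7.06 and 7.03 in the saline inputs and 8.96, 8.80, 8.79, 9.01 and 8.89 in the saline IPs. All IPs lay above all inputs, and inputs 4 and 5 were the highest of the 5 inputs. The IP mean was 4.50-fold the input mean (log2 2.17, SE 0.14, adjusted p = 2.85e-08, limma with Benjamini-Hochberg adjustment over 24797 probe sets). In Leydig samples the inputs read 6.82, 6.64 and 6.78, and the IPs 8.78, 8.34 and 8.86. Again no IP overlapped an input, and the ratio was 3.76 (log2 1.91, SE 0.14, adjusted p = 9.81e-06).

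The Rgs2 enrichment of the cell types differed by -0.26 on the log2 scale (Leydig minus Sertoli, SE 0.22, adjusted p = 0.42), within the error of the fit. The inputs of the 2 lines differed by 0.03 (SE 0.16, adjusted p = 0.94). Between saline IPs the difference was -0.23 (SE 0.19, adjusted p = 0.32), and the ranges of the IPs overlapped. The part of Sertoli RNA in the Leydig value of Rgs2 was not tested. The saline Leydig IPs held 0.85 times the Rgs2 signal of the Sertoli IPs, beside the Sertoli marker sums of 3470 to 4070 and 14000 to 15500 given above.

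**Figure D1:**
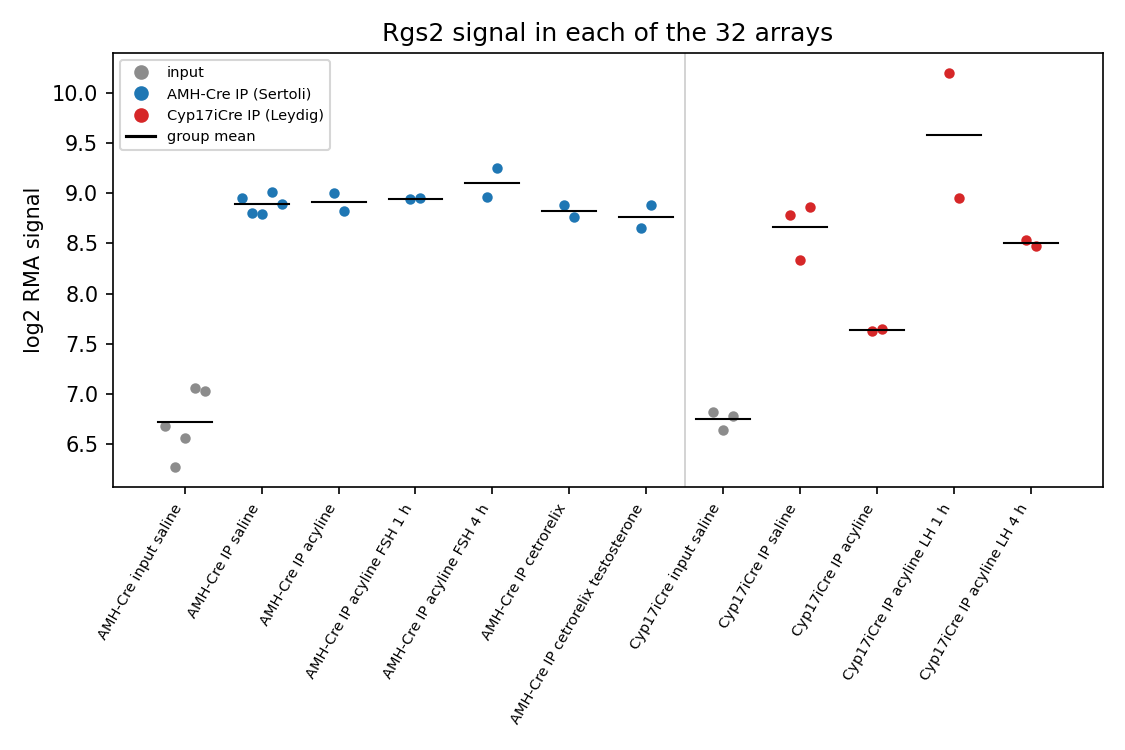
Log2 RMA signal of Rgs2 (vertical axis) in each of the 32 arrays, by Cre line, fraction and treatment (horizontal axis). Points are arrays, with inputs in gray, AMH-Cre IPs in blue and Cyp17iCre IPs in red, and bars are group means. The 2 Leydig acyline arrays are the lowest of the 24 IPs, and the 2 arrays at 1 h of LH lie far apart (10.2 and 8.95).

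Among Leydig IPs the Rgs2 signal had its lowest values after acyline and its highest at 1 h of LH, in differences that did not pass the test. It was 7.63 and 7.65 after acyline, lower than in any other IP of either line, against 8.34 to 8.86 after saline. The group means differed by a factor of 0.49 (log2 -1.02, SE 0.31), but the adjusted p of 0.22 did not pass 0.05. At 1 h of LH the signal was 10.2 in replicate 1 and 8.95 in replicate 2, both above every saline and acyline IP of that line. The mean was 3.83-fold that of acyline (log2 1.94, SE 0.34), with an unadjusted p of 0.000371 and an adjusted p of 0.50. At 4 h the signal was 8.54 and 8.47, inside the saline range and above acyline (1.82-fold, log2 0.87, SE 0.34, adjusted p = 0.24). The step from 1 h to 4 h was -1.07 (SE 0.34, adjusted p = 0.20), and it was -0.45 without LH 1 h replicate 1 and -1.69 without replicate 2, neither of them called.

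None of these 4 Leydig comparisons called Rgs2 at the thresholds used among IPs, 1.5-fold together with an adjusted p below 0.05. At 1 h of LH 2 of all 24461 probe sets were called, so the lack of a call does not show that Rgs2 was unchanged. By qRT-PCR of IPs from that line, the study reported Rgs2 as lowered by acyline and significantly raised soon after LH. The study's array criterion was the p-value of an ANOVA contrast with a fold threshold, and it names no adjustment. The gap of 1.25 between the 2 LH 1 h arrays was exceeded by 97 of 24461 probe sets, and it raised the spread that all Leydig comparisons of Rgs2 share. With both LH 1 h arrays left out, an alternative chosen after seeing the data, the acyline difference of -1.02 was called (SE 0.16, adjusted p = 0.0443). Of the 9 fits without a single Leydig IP, 2 made this call, those without LH 1 h replicate 1 or replicate 2. The rest did not. Without replicate 2 the LH 1 h difference was 2.56, and without replicate 1 it was 1.31, each resting on 1 array at 1 h of LH. The Leydig marker sums of the 2 LH 1 h arrays were 31200 and 28200, their Sertoli marker sums 3560 and 2820, and their spermatid marker sums 19900 and 22700. The part of these differences in the Rgs2 gap was not tested.

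Among the Sertoli IPs the Rgs2 signal stayed between 8.65 and 9.25 in all 15 arrays. The means were 8.91 after acyline, 8.94 and 9.10 at 1 h and 4 h of FSH, 8.82 after cetrorelix and 8.76 after testosterone, against 8.89 after saline. The 5 differences ran from -0.07 (cetrorelix, SE 0.10) to 0.19 (FSH 4 h, SE 0.12), and their lowest adjusted p was 0.97. The effect of acyline differed between the cell types by -1.04 (Leydig minus Sertoli, SE 0.31, unadjusted p = 0.00413, adjusted p = 0.29), which was not a call. It was called with both LH 1 h arrays left out (SE 0.18, adjusted p = 0.0395).

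In order of their means, the 12 groups ran from the inputs of the AMH-Cre (6.72) and Cyp17iCre lines (6.75), through Leydig acyline (7.64), LH 4 h (8.51) and Leydig saline (8.66), to the 6 Sertoli IP groups (8.76 to 9.10) and LH 1 h (9.58). The ranges of the inputs overlapped, as did those of LH 4 h and Leydig saline. So did those of Leydig saline and the lowest Sertoli group, and of LH 1 h and the highest Sertoli group. Of these pairs only the inputs were tested against each other, and for the others the overlap is a description. Neighboring Sertoli groups overlapped too, except FSH 1 h (8.94 and 8.95) and FSH 4 h (8.96 and 9.25). Leydig acyline overlapped no other group. The probe sets most like Rgs2 over the 32 arrays were Gadd45g (Pearson r = 0.94), Slc38a2 (0.92) and Uty (0.92). These correlations are descriptive, since all arrays share the split between inputs and IPs.

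The other R4 members, Rgs3 and Rgs16, act on Gi and Gq. The brighter Rgs3 probe set (10505326) read 8.86 to 9.02 in Sertoli inputs and 8.31 to 8.49 in the saline Sertoli IPs, without overlap. The difference was -0.56 (SE 0.06, adjusted p = 3.23e-06), and in Leydig cells it was -0.88 (SE 0.08, adjusted p = 3.47e-05), from 8.75 to 8.85 in inputs to 7.80 to 7.99 in IPs. Both differences were below the 2-fold that a call of enrichment or depletion required. The second Rgs3 probe set (10607113) was 0.18 above the inputs in Sertoli IPs (SE 0.07, adjusted p = 0.0407) and 0.59 below them in Leydig IPs (SE 0.09, adjusted p = 0.000774). The probe sets therefore had opposite signs in Sertoli cells. The second one also differed between the saline IPs by -0.73 (Leydig minus Sertoli, SE 0.07, adjusted p = 1.59e-07), past 1.5-fold, and the brighter one by -0.46 (SE 0.07). Rgs16 differed from its inputs by -0.14 in Leydig and 0.02 in Sertoli IPs, which did not pass the test. Its saline IPs differed by -0.22 (Leydig minus Sertoli, SE 0.09, adjusted p = 0.0484), under 1.5-fold.

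The RZ subfamily is represented by Rgs17 and Rgs19, which act on Gz and on Gi subunits. Rgs17 (chr10:5825663-5922412) separated the cell types. In Sertoli samples it read 5.94, 6.13, 6.20, 5.98 and 6.14 in inputs and 7.49, 7.76, 7.62, 7.28 and 7.43 in saline IPs, with no overlap. This was an enrichment of 2.71-fold (log2 1.44, SE 0.09, adjusted p = 3.24e-08). In Leydig samples it read 6.01, 6.08 and 6.12 in inputs and 6.12, 5.63 and 6.01 in saline IPs, which overlapped (log2 difference -0.15, SE 0.13, adjusted p = 0.35). The test of the difference between the enrichments gave -1.59 (SE 0.16, adjusted p = 6.90e-07), and the saline IPs differed by -1.60 (SE 0.19, adjusted p = 7.19e-07), a factor of 3.02. In 8 of 9 Leydig IPs and all 8 inputs the signal was under the lowest array median (6.36), and in 3 of those IPs under the filter (5.64). RMA values carry no detection call, so whether Rgs17 was above background there was not measured. All 15 Sertoli IPs (7.28 to 7.76) lay above all 9 Leydig IPs (5.56 to 6.54), whatever the hormone treatment.

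Rgs19, also known as GAIP, had the opposite order in IPs. Its signal was 7.59 to 7.98 in Sertoli inputs and 6.93 to 7.14 in saline Sertoli IPs, and 7.42 to 7.60 in Leydig inputs and 7.22 to 7.45 in saline Leydig IPs. The Sertoli IPs lay 0.77 below inputs (SE 0.09, adjusted p = 8.93e-06) and the Leydig IPs 0.20 below (SE 0.09, adjusted p = 0.0893), the latter with overlap. The difference of 0.57 between the enrichments (SE 0.14, adjusted p = 0.00370) and of 0.30 between saline IPs (SE 0.08, adjusted p = 0.00634) passed the p threshold but neither fold.

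Rgs9 and Rgs11 belong to the R7 subfamily, whose proteins are stable only in a dimer with G beta 5 (Gnb5). Rgs9 (chr11:109225348-109298181) is best known from photoreceptors and the striatum. Its signal was 5.90 to 6.07 in Sertoli inputs and 6.66, 6.76, 6.82, 6.50 and 6.71 in Sertoli saline IPs. This difference of 0.68 (1.60-fold, SE 0.07, adjusted p = 2.08e-06) did not reach 2-fold. In Leydig samples the inputs read 6.15, 6.08 and 6.08 and the IPs 5.90, 5.74 and 5.69, so the difference had the other sign (-0.33, SE 0.08, adjusted p = 0.00828). The enrichments differed by -1.01 (SE 0.11, adjusted p = 9.42e-07), a factor of 2.01 at the edge of the 2-fold threshold. Without any 1 of 6 arrays the value was -0.99 to -0.96 and the call was lost, as it lay under the fold: Sertoli input 2, Sertoli IPs 2 and 3, Leydig input 1 and Leydig IPs 2 and 3. The saline IPs differed by -0.91 (SE 0.11, adjusted p = 8.06e-07), past 1.5-fold. Over all treatments the 15 Sertoli IPs (6.10 to 6.82) lay above the 9 Leydig IPs (5.49 to 6.05). All 9 Leydig IPs, all 8 inputs and 6 Sertoli IPs were under the lowest array median, where the same limit holds as for Rgs17. The 10 Sertoli IPs of the antagonist groups, with or without hormone, read 6.10 to 6.58, against 6.50 to 6.82 in the 5 saline IPs, and the ranges overlapped.

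In the same samples Gnb5 was enriched in both cell types, by 4.18-fold in Leydig IPs (adjusted p = 7.31e-07) and 2.18-fold in Sertoli IPs (adjusted p = 5.53e-08). Its saline IPs differed by 0.97 toward Leydig cells (SE 0.10, adjusted p = 1.39e-07), the reverse of Rgs9. Rgs7bp, which anchors R7 complexes at the membrane, was also higher in Leydig than Sertoli IPs (log2 0.68, SE 0.11, adjusted p = 2.47e-05, limma). In no comparison of Sertoli samples alone did Rgs7bp pass the signal filter, so it entered this test through its Leydig signal. Whether it was above background in Sertoli IPs was not measured. Rgs11 lay at 6.44 to 6.63 in Sertoli inputs and 6.41 to 6.71 in their IPs, and was 0.27 above its inputs in Leydig IPs (SE 0.10, adjusted p = 0.0435), under 2-fold. It was the only member whose inputs differed between the lines at an adjusted p under 0.05 (Leydig minus Sertoli -0.30, SE 0.08, adjusted p = 0.0328), below 1.5-fold.

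**Figure D2:**
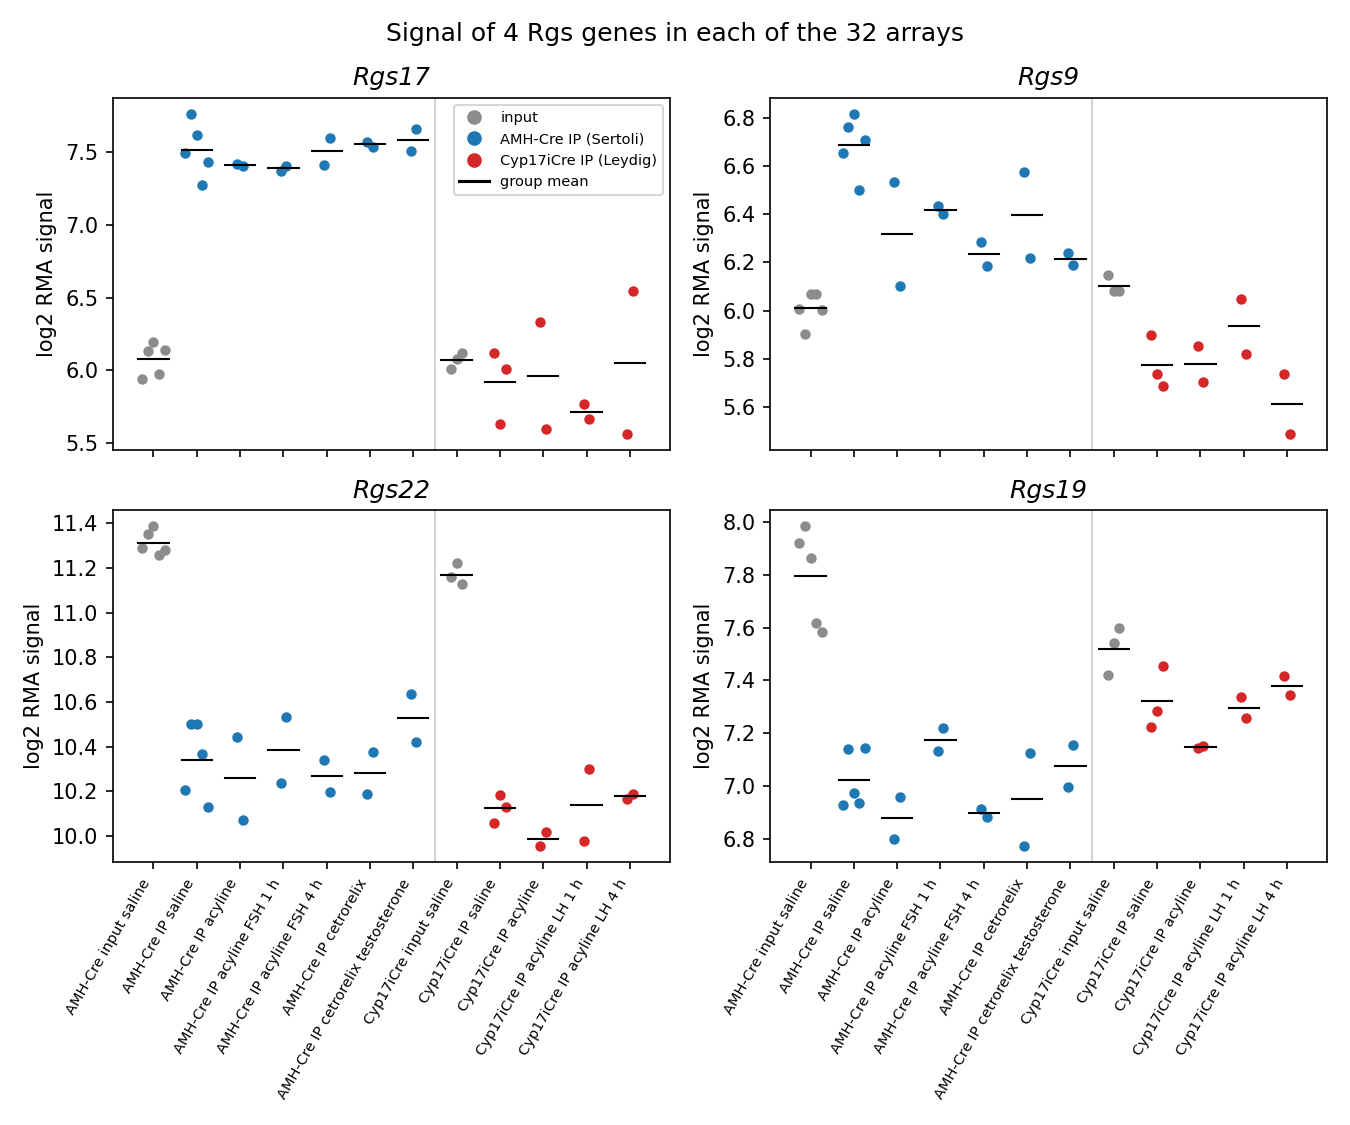
Log2 RMA signal (vertical axes, each on its own scale) of Rgs17, Rgs9, Rgs22 and Rgs19 in the 32 arrays by group (horizontal axis). Points are arrays and bars are group means, with inputs in gray, AMH-Cre IPs in blue and Cyp17iCre IPs in red. Rgs17 is above 7 only in the 15 Sertoli IPs, and Rgs22 is above 11 only in the 8 inputs.

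The R12 members Rgs12 and Rgs14 carry a GoLoco motif that holds Gi in its GDP-bound form, in addition to the RGS domain. Rgs12 was 8.75 to 8.96 in the 8 inputs and 8.14 to 8.69 in the 24 IPs, which did not overlap. Its saline differences of -0.46 in Sertoli cells (SE 0.07, adjusted p = 6.63e-05) and -0.59 in Leydig cells (SE 0.09, adjusted p = 0.000651) were under 2-fold. Rgs14 differed least of all 10 members over the 12 group means (by 0.25), and its IP minus input differences of 0.14 (SE 0.11) and 0.11 (SE 0.09) had adjusted p-values of 0.27 and 0.31.

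Rgs22 (chr15:35960508-36140572) encodes a large protein with several RGS domains that is known from spermatogenic cells of the testis, and its RNA was lower in the IPs than in the inputs. Its signal was 11.3 to 11.4 in the Sertoli inputs and 10.1 to 10.5 in their saline IPs. In Leydig samples it was 11.2, 11.2 and 11.1 in inputs and 10.1, 10.2 and 10.1 in IPs. No IP of any treatment (9.95 to 10.6) reached an input. The Leydig ratio was 0.48 (log2 -1.05, SE 0.07, adjusted p = 6.95e-06), past 2-fold, and the Sertoli ratio 0.51 (log2 -0.97, SE 0.08, adjusted p = 3.19e-07), just short of it. The enrichments differed by -0.08 (SE 0.12, adjusted p = 0.68). The 8 spermatid markers had a median difference of -1.44 in Leydig and -1.15 in Sertoli samples, and 7 and 5 of them were called lower. For the 8 spermatogonia and spermatocyte markers the medians were -1.45 and -1.77, and 7 were called lower in each. The other spermatid markers, and Zbtb16 in Sertoli samples, were also below inputs, but by under 2-fold. In Leydig samples Zbtb16, listed as a marker of undifferentiated spermatogonia, was instead called higher in IPs (2.03-fold, adjusted p = 0.0207, limma). It was also 3.96-fold higher in saline Leydig than Sertoli IPs (adjusted p = 1.98e-07). At 4 h of LH it was lower than after acyline (log2 -1.93, SE 0.36, adjusted p = 0.058), which was not a call. Which cells gave the Zbtb16 signal was not tested. The part of germ cell RNA in the Rgs22 value was not tested. In such bulk fractions, fewer cells of a type and less RNA per cell cannot be told apart.

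The probe sets most like Rgs22 over the 32 arrays were Cap2 (Pearson r = 0.98), Tex38 (0.98) and H2al2a (0.98). Those most like the brighter Rgs3 probe set were Tekt4 (0.975), Rsph6a (0.974) and Tdp1 (0.972). Rgs17 was matched by Epb41l2 (0.99), Vxn (0.99) and Nup62cl (0.99), and Rgs9 by Scn11a (0.905), Hapln3 (0.895) and Slc38a5 (0.885). The names are given for every member whose group means spanned over 1 log2 unit. These correlations too are descriptive, since all arrays share the splits between inputs and IPs and between the Cre lines.

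**Figure D3:**
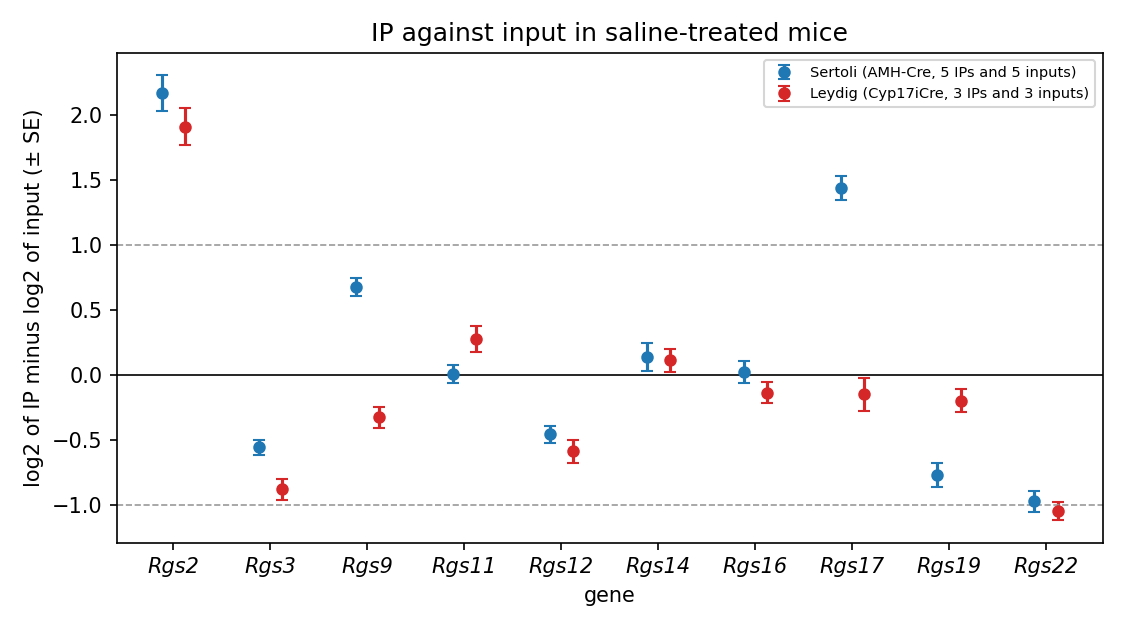
Log2 of IP minus log2 of input in saline-treated mice (vertical axis, ± SE of the limma fit) for the 10 genes (horizontal axis). Blue points are Sertoli cells (5 IPs and 5 inputs), red points are Leydig cells (3 IPs and 3 inputs), and dashed lines mark 2-fold. Rgs2 is above the upper line in both, Rgs17 in Sertoli cells alone, and Rgs22 lies at the lower line in both.

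The counts of called members stand here beside the share of all probe sets called. In Leydig enrichment 1 member was called higher (Rgs2) and 1 lower (Rgs22), beside 11% and 10.7% of all 24705 probe sets tested. The median log2 difference was -0.17 over the members and -0.03 over all. In Sertoli enrichment 2 were higher (Rgs2 and Rgs17) and 0 lower, beside 12.4% and 11.7% of all probe sets (medians 0.01 and -0.03). At an unadjusted p under 0.05, without regard to fold, 6 and 7 members differed in the 2 cell types, beside 65.4% and 71.3% of all probe sets. In the test of the difference between the enrichments, 0 members were higher and 2 lower in Leydig cells (Rgs17 and Rgs9), beside 5.48% and 5.98% of all. Between saline IPs 0 were higher and the same 2 genes lower, beside 12.4% and 13.3%. Between inputs 0 members were called by limma and 2.12% of all probe sets. At an unadjusted p under 0.05 it was 2 members and 27% of all.

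Under the hormone treatments 0 of the 10 members were called in any comparison by limma. The share of all probe sets called was also small. For Leydig IPs it was 0.143% after acyline, 0.00818% at 1 h and 0.613% at 4 h of LH, and 0.2% between 4 h and 1 h. For Sertoli IPs it was 0.00406% after acyline, 0.0122% after cetrorelix, 0% at 1 h and 0.0203% at 4 h of FSH, and 0.00406% after testosterone. For the difference in the acyline effect between cell types it was 0.0669%. At an unadjusted p under 0.05, 1, 1, 3 and 3 members passed in the Leydig comparisons in that order, beside 13.7%, 6.06%, 18.3% and 16.1% of all probe sets. In the Sertoli comparisons 1, 1, 1, 0 and 1 members passed, beside 5.01%, 4.99%, 9.43%, 4.4% and 5.01%. In the difference 1 member passed, beside 8.66%.

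Apart from Rgs2, the members differed by at most 0.38 in either direction among Leydig IPs (-0.38 to 0.34 over 4 comparisons), and all 10 by -0.37 to 0.31 among Sertoli IPs (5 comparisons). The lowest adjusted p of these was 0.17, for Rgs16 at 4 h of LH, a value that did not pass. Rgs16 read 6.35 and 6.19 after acyline and 5.94 and 5.85 at 4 h (log2 -0.38, SE 0.12), and in Sertoli IPs 6.36 after cetrorelix in both arrays against 6.59 and 6.74 after testosterone (0.31, SE 0.13, adjusted p = 0.93). The lowest of the Sertoli differences was that of Rgs9 after acyline, from 6.50 to 6.82 after saline to 6.53 and 6.10 (-0.37, SE 0.12, adjusted p = 0.97), with overlap. Rgs19 was 0.30 higher at 1 h of FSH than after acyline (SE 0.12, adjusted p = 0.48). None of these passed the test.

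**Figure D4:**
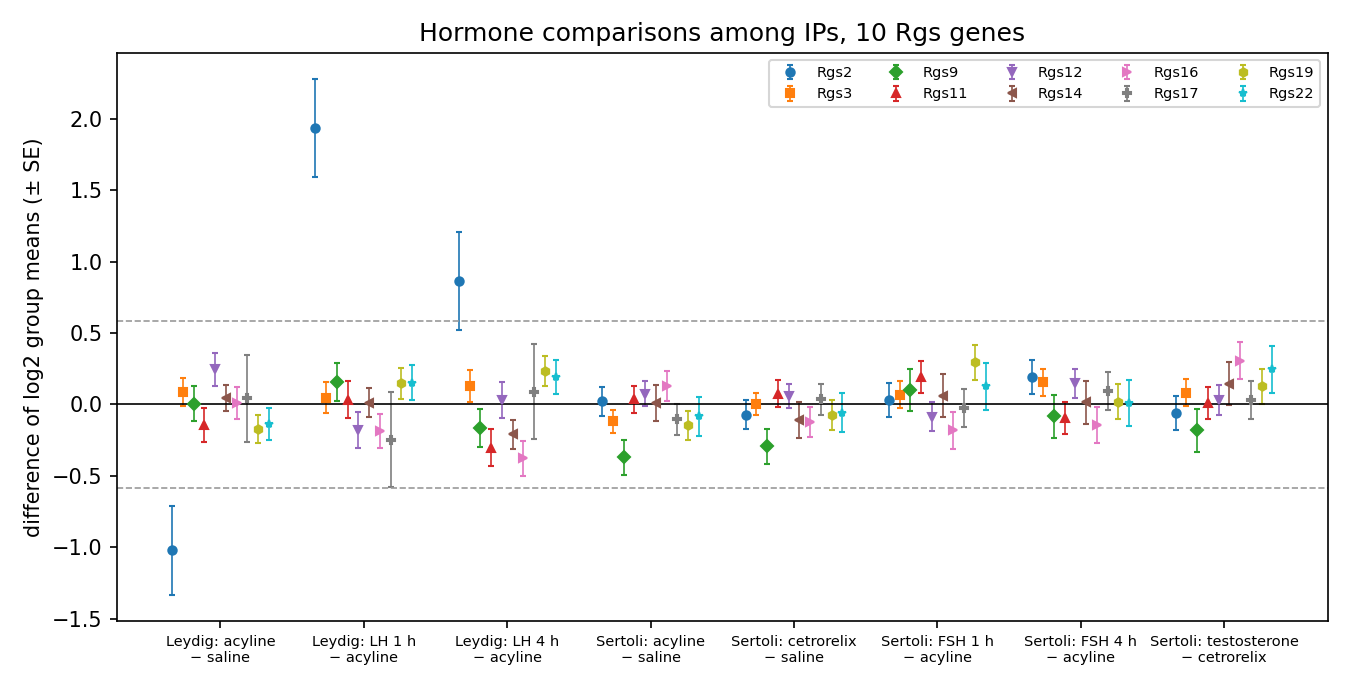
Difference of log2 group means among IPs (vertical axis, ± SE of the limma fit) for the 10 genes in 8 hormone comparisons (horizontal axis, 3 in Leydig and 5 in Sertoli cells). Colors and shapes mark genes, and dashed lines mark 1.5-fold. Rgs2 in the 3 Leydig comparisons is outside the lines (-1.02, 1.94 and 0.87) and all other points are inside.

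The partners of RGS proteins were described from lists of names. Of 13 tested G alpha subunits, 2 were higher in Leydig IPs than inputs, Gnaq (2.80-fold) and Gnai1 (2.16-fold), and 1 lower, Gnao1 (0.472-fold), beside the 11% and 10.7% of all probe sets called. In Sertoli cells 6 were higher and the same gene, Gnao1, lower (0.385-fold), beside 12.4% and 11.7% of all. The 6 were Gna14 (4.74-fold), Gnai1 (4.29-fold), Gnai2 (3.12-fold), Gnaq (2.62-fold), Gna13 (2.55-fold) and Gnai3 (2.19-fold). Gnaq and Gna14 belong to the Gq class on which Rgs2 acts, and Gnai1 to Gnai3 to the Gi class on which Rgs17 and Rgs19 act. The list's median was 0.43 in Leydig and 0.94 in Sertoli cells, against -0.03 over all probe sets in both. Enrichment of Gna14 differed between the cell types (log2 -1.44, SE 0.16, adjusted p = 2.27e-06).

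Of 13 G beta and gamma subunits, 2 were called higher in each cell type and 0 lower, where 11% and 12.4% of all probe sets were called higher. They were Gnb5 and Gng12 (2.19-fold in Leydig and 3.50-fold in Sertoli IPs). Of 13 other regulators of G proteins and their receptors, Gpsm2 was lower in both (0.417-fold in Leydig and 0.418-fold in Sertoli IPs). Arrb1, a beta arrestin, was higher in Leydig IPs (2.38-fold), and Gpsm1, which holds Gi in its GDP-bound form, was higher in Sertoli IPs (3.06-fold). Under hormones 0 genes of these 3 lists were called in any comparison by limma. Of 13 further RGS genes and RGS-binding proteins, 12 have a probe set of their own, and 2 to 5 of them passed the signal filter in a comparison. Among these 1 was called, Rgs7bp between saline IPs. It passed the filter there but in no comparison of Sertoli samples alone.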

How the data were processed

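Affymetrix Mouse Gene 1.0 ST arrays were hybridized with RNA of testis inputs and of anti-HA immunoprecipitates. The authors summarized and normalized the probe intensities by RMA, and the deposited values are log2 signals per probe set. The version of that software was not given in the sources used here. Per the labels each sample is 1 array, and 0 columns belonged to no sample. For 4 cetrorelix arrays the source field names input, but titles and sample types name IP, which was followed.

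Of 35556 probe sets, 21789 carried 1 gene symbol, 1621 several and 12146 none in the probe-to-gene table, and 23 symbols were updated through synonyms. Probe sets above a linear signal of 50 in at least 1 array of a fit were tested with limma 3.58.1 in R 4.3.3 on group means, with Benjamini-Hochberg adjustment over all probe sets tested in a comparison. A call required an adjusted p below 0.05 with a 2-fold difference for IP against input, or 1.5-fold for other comparisons. The fits left 4 residual degrees of freedom for Leydig enrichment, 8 for Sertoli enrichment, 12 for both lines after saline, 5 for Leydig IPs, 9 for Sertoli IPs and 14 for the IPs of both lines. The number of arrays limits the precision. Steps were tested on simulated data.

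The gene's probe set with the highest mean over 32 arrays represented it, and the second Rgs3 probe set is named as such. All members are named. For members whose group means spanned over 1 log2 unit, the 3 genes with the highest Pearson r were listed. The members and gene lists were chosen with earlier results of these data known. Alternatives were no filter, median-centred or quantile-normalized arrays, a mean-variance trend, an ordinary contrast with unadjusted p, a replicate block, fits of the compared groups only and leaving out single arrays. Sequences and coordinates came from RefSeq (GRCm38.p6).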

Additional observations from a re-analysis of the deposited data

Results flagged for a closer look

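Enrichment of 2 members differed between the cell types by the test of the difference itself. For Rgs17 the Leydig minus Sertoli difference of log2 enrichment was -1.588 (SE 0.16, adjusted p = 6.90e-07, limma). It was IP above input in Sertoli cells (1.44) and within the error of the fit in Leydig cells (-0.15), and it ranged from -1.69 to -1.44 when single arrays were left out. For Rgs9 it was -1.008 (SE 0.11, adjusted p = 9.42e-07), with 0.68 in Sertoli and -0.33 in Leydig cells, at the edge of 2-fold. The causes of both were not tested. The 10 members were examined for an array far from the rest in the 2 groups of 5 arrays (20 sets of values, Sertoli inputs and IPs after saline), and 0 were found. The groups of 2 and 3 arrays, all Leydig groups among them, were too small to be examined.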

How the results depend on the processing

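Quantile normalization left 1 member called in Leydig enrichment in place of 2, since Rgs22 (-0.95) fell under 2-fold. By an ordinary contrast with unadjusted p, 1 member, Rgs2, was called in each of Leydig acyline, LH 1 h and the difference in acyline effect between cell types. By limma, 13.7%, 6.06% and 8.66% of all probe sets had an unadjusted p under 0.05 in these comparisons, without regard to fold. The share called by the ordinary contrast itself is not given here. With both LH 1 h arrays left out, 1 member, Rgs2, was called for Leydig acyline (adjusted p = 0.0443) and for the difference in acyline effect (0.0395), an alternative chosen after seeing the data. Over all probe sets, the alternatives counted below called at most 246 and 31 in these comparisons. Those maxima came from other settings, the fit of the compared groups only and the mean-variance trend. The share of all probe sets called without the LH 1 h arrays, or without single arrays, is not given here. When single arrays were left out, 1 to 2 members were called in the difference of enrichments, 2 to 3 in Sertoli enrichment, and 0 to 1 each in Leydig acyline, LH 1 h and the difference in acyline effect. The sign of small Rgs2 differences changed in that setting: -0.086 to 0.112 between inputs, -0.067 to 0.112 for Sertoli acyline, -0.058 to 0.121 for FSH 1 h and -0.171 to 0.058 for testosterone.

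Per the study's methods each IP had its own input, but the sources used here do not say that the numbers match them. Same-numbered arrays correlated at -0.15 to 0.15 in their deviations from group means, which leaves the pairing unsettled. With the replicate block 2 members stayed called in each enrichment and 0 in the hormone comparisons (Rgs2 -0.92 for Leydig acyline, adjusted p = 0.41). Over all probe sets the block changed calls from 35 to 0 for Leydig acyline, from 2 to 0 for LH 1 h, from 150 to 4 for LH 4 h and from 49 to 2 between LH times. With numbers crossed, LH 4 h had 9 calls and testosterone 1.

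The ordinary contrast with unadjusted p and the settings without single arrays are not counted here. Between the other alternatives, counts of calls over all probe sets moved by over 1.5 times. They ranged from 0 to 246 for Leydig acyline (35 as reported), from 0 to 3 for LH 1 h (2), from 1 to 309 for LH 4 h (150), from 0 to 148 between LH times (49), from 0 to 8 for Sertoli acyline (1), from 1 to 4 for cetrorelix (3), from 0 to 16 for FSH 1 h (0), from 0 to 5 for FSH 4 h (5), from 0 to 1 for testosterone (1) and from 11 to 31 for the difference in acyline effect (17). The cause was not tested.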

Other observations

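Rgs17 varied among the 9 Leydig IPs. After acyline the signal was 6.33 and 5.60, beside Sertoli marker sums of 3640 and 2810. At 4 h of LH it was 5.56 and 6.54, beside sums of 2630 and 3610. At 1 h of LH it was 5.77 and 5.66, beside 3560 and 2820. After saline it was 6.12, 5.63 and 6.01, beside 3470, 3770 and 4070. In the 3 groups of 2 arrays the array with the higher sum had the higher Rgs17 signal, but among the 3 saline arrays the lowest sum went with the highest signal. The part of Sertoli RNA in these values was not tested. Rgs2 did not follow the sums in every group either, with 7.63 and 7.65 after acyline and 8.54 and 8.47 at 4 h of LH.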
